A study of Mus musculus with 17 samples.

Results

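The genes described here encode the enzymes and transporters of sugar breakdown in muscle, that is glycolysis from phosphofructokinase to lactate, the making and breaking of glycogen, and the carriage of lactate across the cell membrane. The list held 39 genes, chosen by name for these roles, and 36 of the 19938 genes measured belonged to it. Pfkfb1, Eno1 and Gapdh were not measured by a probe set (a group of short probes on the array that report on 1 transcript) assigned to them alone, and 25 probe sets that named Gapdh also named other genes. Where a gene had several probe sets, the one with the highest mean level over all arrays was used, which concerned Pgk1, Pgam1, Pkm and Ldhb.

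Levels came from Affymetrix Mouse Gene 1.0 ST arrays hybridised with RNA of skeletal muscle, 1 array for each of 17 male wildtype C57BL/6N mice aged 5 to 6 months. Con,SD mice (n = 7) received mock injections of citrate buffer and a standard diet. STZ,SD mice (n = 5) received the same diet and, at an age of 10 to 16 weeks, streptozotocin. It was given at 65 mg/kg into the peritoneum on 5 days, and it destroys pancreatic beta cells and so lowers insulin. STZ,BEZ mice (n = 5) received streptozotocin in the same way and then, from 2 weeks later and for 8 weeks, chow with 0.25% or 0.5% bezafibrate, a fibrate used to lower blood lipids that acts on peroxisome proliferator-activated receptors. The labels do not tie the strengths to single mice, and the study's methods name only the higher one. No source used here names the muscle. The 10 markers of fast muscle fibres were all within the top 1% of genes by mean level, with Atp2a1 at 14.01, so the arrays fitted the labelled tissue. Array 1 of Con,SD stood apart. Its correlation with the mean of the other controls was 0.973, while the other 16 arrays reached 0.991 to 0.997 within their groups, and the mean of 12 hepatocyte markers was 12.25 on it and at most 10.18 on any other array. Con,SD array 4 had the next lowest correlation. The counts of called members against Con,SD are therefore also given without these 2 arrays, with the calls that then changed. Counts of other genes and of markers are given with all arrays only.

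Glycolysis splits glucose into pyruvate and yields ATP without oxygen, and fast muscle fibres rely on it. Glycogen is the muscle's store of glucose, built by glycogen synthase and broken down by glycogen phosphorylase, which phosphorylase kinase switches on. Insulin favours the uptake and storage of glucose in muscle, and lactate made from pyruvate leaves or enters fibres through monocarboxylate transporters. The members' probe sets were bright on these arrays: 12 of the 36 were among the top 1% of genes by mean level and 21 among the top 5%, with that of aldolase A (Aldoa) at a mean RMA level of 13.99. RMA levels are background-corrected, normalised and summarised probe signals on the log2 scale, on which a difference of 1 is a doubling. Each probe set binds with its own strength, so brightness does not order the genes by abundance, and levels of different genes are not compared.

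In muscle of streptozotocin-treated mice 12 of the 36 members were lower, among them Pfkm, Ldha, Eno3 and the lactate exporter Slc16a3, while Fbp2 and Pfkfb3 had the largest increases. Between STZ,SD and Con,SD, 17 of the 36 members differed at a Benjamini-Hochberg adjusted p under 0.1 in limma, a linear model fitted to all genes with moderated variances. Of them 12 fell and 5 rose. The background was high: 25.8% of all genes passed this test, 13.9% being higher in STZ,SD and 11.9% lower. The members' share was 47.2%, with 33.3% lower and 13.9% higher, so the share that rose was that of all genes. All genes include 7604 with a mean level at or under 6, while most members were bright. No share among genes of like brightness was counted, so the part of brightness in the members' share was not tested. The median difference over the members was -0.10 on the log2 scale, beside -0.01 over all genes, and 25 of the 36 members were below 0. In 7 members no STZ,SD array overlapped any Con,SD array, as was true of 8.3% of all genes. Most changes were small: other than Fbp2 and Pfkfb3, the called members moved by 0.15 to 0.45 in either direction. The 17 calls remained 17 without arrays 1 and 4 of Con,SD, 16 of them the same genes.

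**Figure D1:**
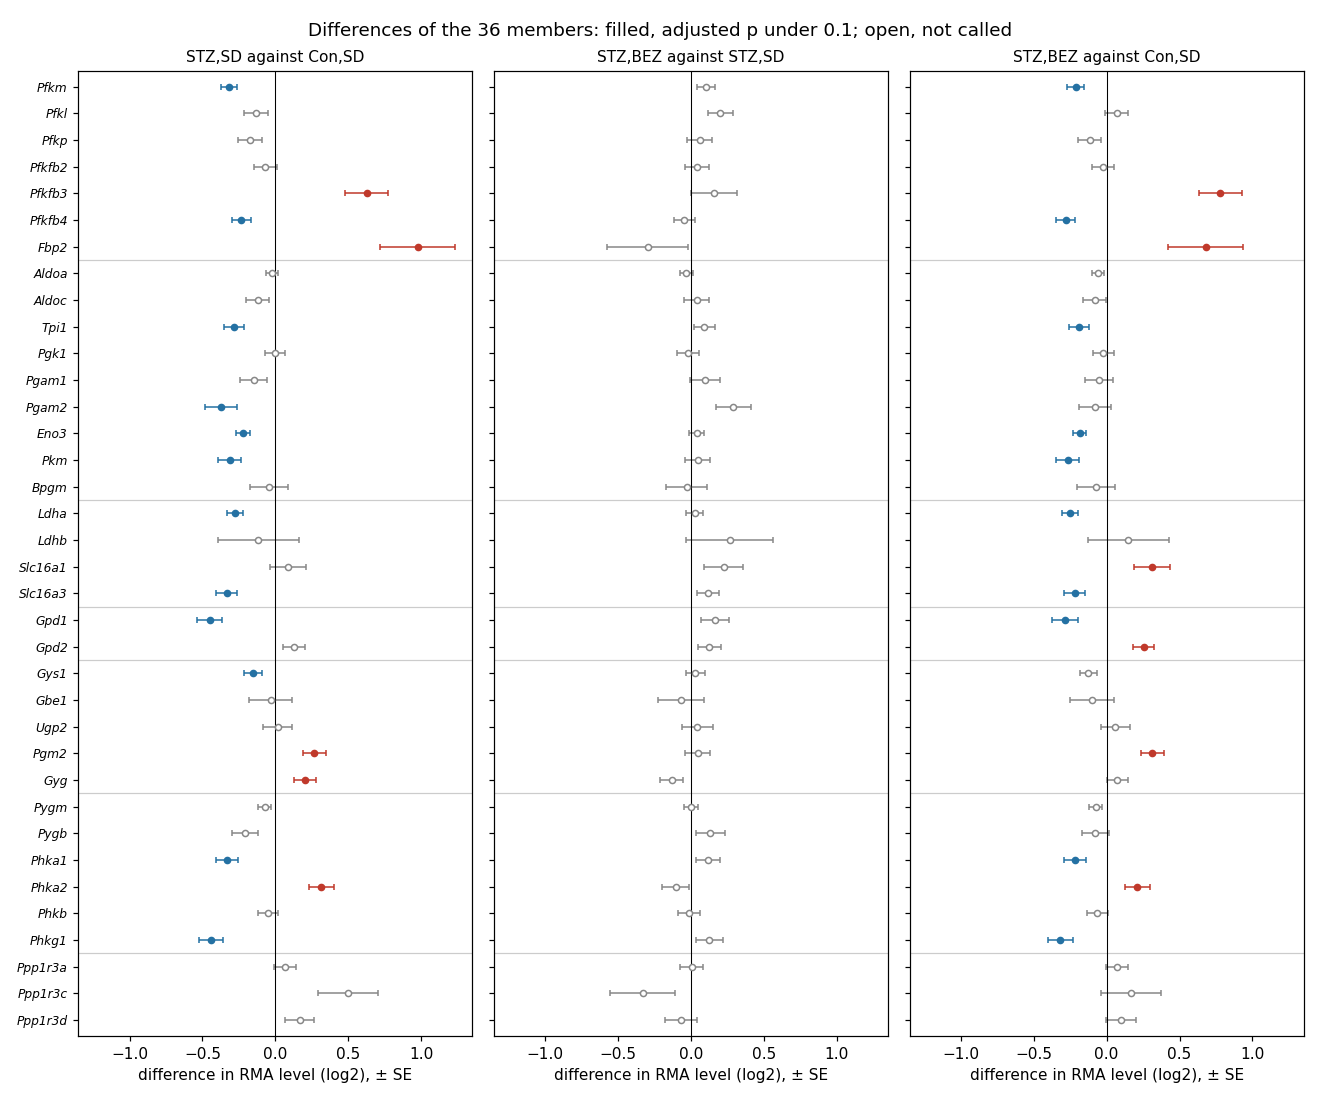
Difference in RMA level (log2, horizontal axis) of each of the 36 members in the 3 comparisons, with the standard error as a bar; filled points passed an adjusted p under 0.1 (blue lower, red higher), open points did not, and grey lines separate roles. In STZ,SD against Con,SD, 12 members lie below 0 and 5 above 0 as filled points, and in STZ,BEZ against STZ,SD every point is open.

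Around phosphofructokinase, 2 of the 7 measured members fell and 2 rose. Pfkm, the muscle form of phosphofructokinase and the pacemaker of glycolysis, ranged from 12.87 to 13.06 on the Con,SD arrays, with a median of 13.00. On the 5 STZ,SD arrays it was 12.63, 12.52, 12.66, 12.85 and 12.66, so that every diabetic array lay below every control. The difference was -0.32 ± 0.06 (SE, adjusted p = 0.000904), a 1.25-fold lower level. The liver form Pfkl (-0.13 ± 0.08, adjusted p = 0.271) and the platelet form Pfkp (-0.17 ± 0.08, adjusted p = 0.138) did not pass.

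Of the bifunctional enzymes that make or remove fructose 2,6-bisphosphate, the strongest activator of phosphofructokinase, Pfkfb3 was higher and Pfkfb4 lower in diabetic muscle. Pfkfb3, whose product mainly makes the activator, had a median of 11.07 over the controls, between 10.45 and 11.35, and values of 11.93, 11.31, 11.52, 11.41 and 11.72 in STZ,SD. Only the lowest of the diabetic arrays lay within the control range. The rise was 0.63 ± 0.15 (adjusted p = 0.00606), or 1.54-fold. Pfkfb4 fell by 0.24 ± 0.06 (adjusted p = 0.0164), from a mean of 8.10 to 7.87, and Pfkfb2, the heart form, was not called (-0.07 ± 0.08). Fbp2, the muscle fructose bisphosphatase that runs the phosphofructokinase step backwards and serves the making of glycogen from lactate, rose most of all members. Its level was 8.01 to 8.94 in the controls with a median of 8.38, and 9.19, 9.50, 10.18, 8.52 and 9.51 in STZ,SD. STZ,SD array 4 lay within the control range and the other 4 above it. The mean difference was 0.98 ± 0.26 (adjusted p = 0.013), 1.97-fold.

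**Figure D2:**
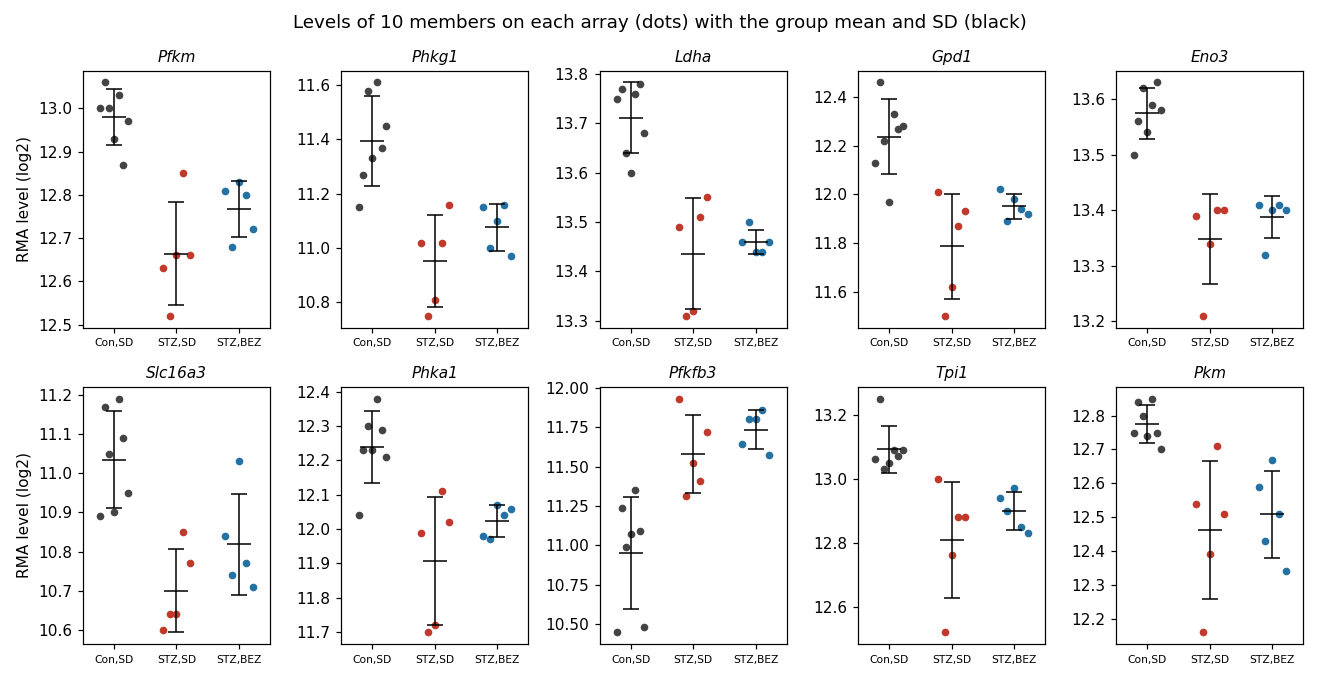
RMA level (log2, vertical axis, a separate scale for each gene) of the 10 members with the smallest p in STZ,SD against Con,SD on each of the 17 arrays (dots), with group means and SDs in black. For Pfkm, Ldha, Eno3, Slc16a3 and Tpi1 no STZ,SD dot reaches the Con,SD dots, and the STZ,BEZ dots of all 10 overlap those of STZ,SD.

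Along the trunk of glycolysis, from aldolase to pyruvate kinase, 4 of the 9 measured members fell and none rose. Tpi1, which interconverts the triose phosphates, ranged from 13.03 to 13.25 in Con,SD around a median of 13.07. In STZ,SD it was 13.00, 12.52, 12.76, 12.88 and 12.88, below all controls (-0.28 ± 0.07, adjusted p = 0.00796). Eno3, the muscle enolase, separated the groups as cleanly: its 7 controls lay between 13.50 and 13.63 with a median of 13.58, and its STZ,SD values were 13.39, 13.21, 13.34, 13.40 and 13.40 (-0.22 ± 0.05, adjusted p = 0.00306). Pkm, the muscle pyruvate kinase that ends the pathway, had a median of 12.75 in the controls, between 12.70 and 12.85, against 12.54, 12.16, 12.39, 12.71 and 12.51, with 1 diabetic array just inside the control range (-0.31 ± 0.08, adjusted p = 0.00953). Pgam2, the muscle phosphoglycerate mutase, fell by 0.37 ± 0.11 (adjusted p = 0.0238). That mean hid a spread, since its STZ,SD values of 12.25, 11.62, 11.89, 12.36 and 12.40 included 2 within the control range of 12.32 to 12.60 and 2 far below it. The same STZ,SD arrays, 2 and 3, also held the lowest values of Pkm, Tpi1, Gpd1, Phka1 and Phkg1, as the heat map of the members shows. Leaving out either array ended none of these calls.

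Not every enzyme of the trunk was called. Aldoa was 14.02 ± 0.04 (SD, n = 7) in Con,SD and 13.99 ± 0.02 (n = 5) in STZ,SD, with a 95% interval of the difference from -0.11 to 0.06. Pgk1, phosphoglycerate kinase, had means of 12.03 in both groups (95% interval -0.15 to 0.15). Its 3 probe sets gave differences from -0.01 to 0.00, but 2 of them held identical values on all arrays and so are not separate measurements. Pgam1, the mutase of most other tissues, was not called with the probe set used (-0.15 ± 0.09, adjusted p = 0.289), while its other probe sets, 2 with identical values, passed narrowly with every probe set tested as its own row (-0.20 ± 0.08, adjusted p = 0.0997). Pkm's other probe set also fell (-0.36 ± 0.07). Aldoc, the brain form of aldolase (-0.12 ± 0.08), and Bpgm, which makes the 2,3-bisphosphoglycerate of red cells (-0.04 ± 0.13), did not pass.

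**Figure D3:**
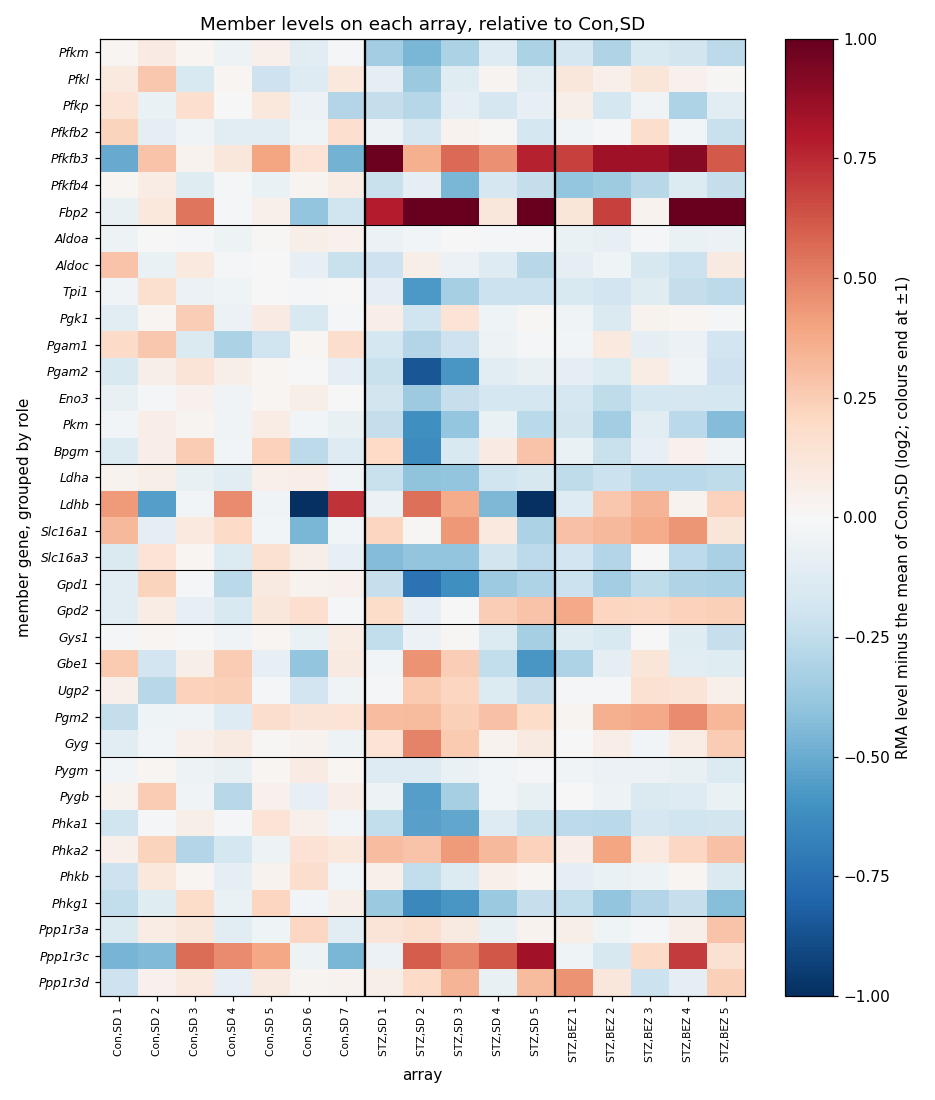
RMA level of each member (rows, grouped by role between horizontal lines) on each array (columns, groups between vertical lines), minus the mean of the Con,SD arrays; colours end at a difference of 1 (log2) either way. Pfkfb3 and, on most arrays, Fbp2 stand out as higher in diabetic muscle with or without bezafibrate, Ldhb varies widely within Con,SD and STZ,SD, and STZ,SD arrays 2 and 3 hold the deepest decreases of Pgam2, Gpd1, Phka1 and Phkg1.

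Of the 4 members that make or carry lactate 2 fell and none rose. Ldha, the subunit of lactate dehydrogenase that predominates in fast muscle, was between 13.60 and 13.78 in the controls with a median of 13.75. In STZ,SD it read 13.49, 13.31, 13.32, 13.51 and 13.55, all below the lowest control, for a decrease of 0.28 ± 0.05 (adjusted p = 0.00184). Slc16a3, the monocarboxylate transporter MCT4 through which glycolytic fibres release lactate, ran from 10.89 to 11.19 in Con,SD (median 11.05). Its STZ,SD values of 10.60, 10.64, 10.64, 10.85 and 10.77 again lay below every control (-0.33 ± 0.07, adjusted p = 0.00338), a 1.26-fold lower level. The counterparts known for lactate use in oxidative tissue were not called: Slc16a1 (MCT1) differed by 0.09 ± 0.12 and Ldhb, the heart subunit of lactate dehydrogenase, by -0.12 ± 0.28. Ldhb's wide error reflected a range from 8.47 to 10.20 within Con,SD alone, described further on.

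Glycerol 3-phosphate dehydrogenases carry electrons from glycolytic NADH to the mitochondria, Gpd1 in the cytosol and Gpd2 in the inner membrane. Gpd1 had a control range of 11.97 to 12.46 and a median of 12.27. Its STZ,SD values were 12.01, 11.50, 11.62, 11.87 and 11.93, so 1 diabetic array lay above the lowest control. The difference of -0.45 ± 0.09 (adjusted p = 0.00185) was the largest fall of the 36 members, 1.37-fold. Gpd2 was not called (0.13 ± 0.07, adjusted p = 0.242).

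For 35 of the 36 members, all but Gpd1, RefSeq's mouse promoters (build GRCm38.p6, 250 bases before to 50 after each annotated start) were at hand, 48 in all. They were searched on both strands for the E-box CACGTG, for ACGTG, the core of the hypoxia response element, which lies within that E-box, and for a direct repeat of AGGTCA spaced by 1 base, the consensus of peroxisome proliferator-activated receptors. ACGTG was found in 20 of the 35 members' promoters (57.1%) and in 21.8% of all 27025 genes with a promoter, counting a gene if any of its promoters held it. Among the members it was in 4 of 11 that fell, 4 of 5 that rose and 12 of 19 that were not called in STZ,SD against Con,SD. The E-box was in 9 members (25.7%; 8.09% of all genes), namely 2 that fell, 3 that rose and 4 not called. The direct repeat was in none of the 48 promoters and in 13 of all 32851 promoters. These matches describe the letters of the windows and were not tested as binding sites.

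Promoters of 2 members that fell and the 2 that rose most, picked because they hold these letters, are shown with every ACGTG (or CACGT on the other strand) in capitals, so that an E-box reads as 6 capitals. They lie at chr7:46845554-46845853 (+ strand, Ldha), chr11:120948817-120949116 (+, Slc16a3), chr2:11502041-11502340 (- strand, Pfkfb3) and chr13:62858351-62858650 (-, Fbp2), each 5' to 3'.
Ldha: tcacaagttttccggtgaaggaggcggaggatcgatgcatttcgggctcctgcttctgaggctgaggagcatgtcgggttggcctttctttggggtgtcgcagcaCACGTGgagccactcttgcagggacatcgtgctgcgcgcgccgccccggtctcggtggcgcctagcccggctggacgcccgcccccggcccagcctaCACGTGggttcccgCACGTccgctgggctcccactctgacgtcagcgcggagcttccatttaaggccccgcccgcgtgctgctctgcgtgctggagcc
Slc16a3: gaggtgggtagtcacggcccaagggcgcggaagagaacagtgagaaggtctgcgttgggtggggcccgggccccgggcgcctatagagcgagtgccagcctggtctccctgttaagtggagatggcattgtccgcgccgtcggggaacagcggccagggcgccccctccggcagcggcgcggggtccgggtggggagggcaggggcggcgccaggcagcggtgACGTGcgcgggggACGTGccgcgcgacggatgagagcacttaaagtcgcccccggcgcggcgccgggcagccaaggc
Pfkfb3: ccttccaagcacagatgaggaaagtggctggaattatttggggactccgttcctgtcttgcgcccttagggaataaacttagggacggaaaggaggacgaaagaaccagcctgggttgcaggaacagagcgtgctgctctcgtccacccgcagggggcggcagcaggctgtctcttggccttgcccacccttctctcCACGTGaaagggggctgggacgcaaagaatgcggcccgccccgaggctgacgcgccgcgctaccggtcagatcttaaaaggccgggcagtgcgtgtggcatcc
Fbp2: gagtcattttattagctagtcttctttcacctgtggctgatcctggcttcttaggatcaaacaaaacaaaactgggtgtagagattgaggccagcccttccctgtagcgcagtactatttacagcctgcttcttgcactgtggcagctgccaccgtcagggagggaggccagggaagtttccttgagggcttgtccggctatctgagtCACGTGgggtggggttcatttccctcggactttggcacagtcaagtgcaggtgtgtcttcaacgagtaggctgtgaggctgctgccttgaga
Ldha, which fell, holds 2 E-boxes and 1 further core, Slc16a3, which fell, 2 cores without an E-box, and Pfkfb3 and Fbp2, which rose, 1 E-box each. Ldha and Pfkfb3 each have a second promoter that is not shown, without an E-box, and with 0 and 1 core.

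Of 6 members of glycogen breakdown 2 fell and 1 rose, all of them subunits of phosphorylase kinase, the calcium-activated enzyme that turns on phosphorylase. Phkg1, its muscle catalytic subunit, was 11.15 to 11.61 in Con,SD with a median of 11.37. The STZ,SD arrays gave 11.02, 10.75, 10.81, 11.02 and 11.16, the last of them just above the lowest control, and the fall was 0.44 ± 0.08 (adjusted p = 0.00152), 1.36-fold. Phka1, the muscle form of its regulatory alpha subunit, ranged from 12.04 to 12.38 around 12.23 in the controls and was 11.99, 11.70, 11.72, 12.11 and 12.02 in STZ,SD (-0.33 ± 0.07, adjusted p = 0.00417). Phka2, the liver form of the alpha subunit, rose by 0.32 ± 0.08 (adjusted p = 0.0134), and its 5 diabetic arrays at 8.23, 8.21, 8.35, 8.25 and 8.15 were all above the highest control at 8.14. The alpha subunits thus changed in opposite directions on the same arrays. Phkb, the beta subunit, was not called (-0.05 ± 0.07). Nor was either glycogen phosphorylase, the muscle form Pygm (-0.07 ± 0.05, 95% interval -0.17 to 0.02) and the brain form Pygb (-0.21 ± 0.09, adjusted p = 0.125). Pygb was called lower without arrays 1 and 4 of Con,SD (-0.26, adjusted p = 0.0652), with median centring (adjusted p = 0.081) and with array weights (adjusted p = 0.0944).

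Among the members listed by name under the building of glycogen 2 rose and 1 fell. Pgm2, a phosphoglucomutase family member, was 6.80 to 7.21 in Con,SD (median 7.00) and 7.34, 7.35, 7.27, 7.32 and 7.22 in STZ,SD, all above the controls (0.27 ± 0.08, adjusted p = 0.0263). Pgm1, a phosphoglucomutase counted below among the other glycogen genes, fell from a mean of 12.37 to 12.09 (-0.28 ± 0.11, adjusted p = 0.08). Gyg, the glycogenin that primes new glycogen particles, rose by 0.20 ± 0.07 (adjusted p = 0.0605). That call was lost without STZ,SD array 2 or array 3, where Gyg was highest at 12.66 and 12.43, and with median centring (adjusted p = 0.119). Gys1, the muscle glycogen synthase, fell by 0.15 ± 0.06 (adjusted p = 0.0824), the weakest of the 17 calls, which was lost without any of 7 of the 12 arrays, without arrays 1 and 4 of Con,SD together (adjusted p = 0.107), in a fit of these 2 groups alone (adjusted p = 0.119) and in SAM. The other 15 called members kept their call when any 1 array was left out. The branching enzyme Gbe1 (-0.03 ± 0.15) and Ugp2, which makes the UDP-glucose that glycogen is built from (0.02 ± 0.10), were not called.

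The 3 members that direct protein phosphatase 1 to glycogen did not pass in limma. Ppp1r3c was closest (0.50 ± 0.21, adjusted p = 0.103). SAM called it higher, and so did limma with array weights (adjusted p = 0.0468), with a term for slow fibre level, described further on (adjusted p = 0.0622), and with the dimmest genes left out (adjusted p = 0.0838). Its controls were split between 3 arrays at 9.98 to 10.00 and 4 at 10.39 to 11.00, and its diabetic arrays read 10.38, 11.05, 10.93, 11.06 and 11.28. Ppp1r3d differed by 0.17 ± 0.10 and the muscle-specific Ppp1r3a by 0.07 ± 0.07.

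Of 41 measured neighbouring genes of the pathway, listed apart from the members, 3 rose and 10 fell with all arrays in the fit. That is a share of 31.7% beside the 25.8% of all genes. Of 6 measured genes of glucose uptake and the first steps, 2 fell and none rose. They were Slc2a4, the insulin-regulated glucose transporter GLUT4, from a mean of 11.49 to 11.13 (-0.36 ± 0.08, adjusted p = 0.00291), and Hk2, the insulin-responsive hexokinase of muscle, from 9.81 to 9.40 (-0.42 ± 0.10, adjusted p = 0.00863). Of 10 other isoforms and regulators of glycolysis, 2 fell: Tigar, which lowers fructose 2,6-bisphosphate (-0.64 ± 0.08, adjusted p = 5.52e-05), and Ldhd, a mitochondrial D-lactate dehydrogenase (-0.24 ± 0.07). Of 20 other glycogen genes, 3 rose and 5 fell. The falls included the liver forms of glycogen synthase, Gys2 (-0.91 ± 0.29, adjusted p = 0.035), and of phosphorylase, Pygl (-0.42 ± 0.17, adjusted p = 0.0939). Con,SD array 1, with its high hepatocyte markers, was in this fit, and its part in these falls was not tested. Gsk3b, a kinase that inactivates glycogen synthase, rose by 0.40 ± 0.07 (adjusted p = 0.000513), while Ppp1cc, a catalytic subunit of protein phosphatase 1 (-0.38 ± 0.05), and Calm3, 1 of the genes for calmodulin, which is also a subunit of phosphorylase kinase (-0.43 ± 0.11), fell. Of 5 further transporters of lactate and pyruvate, Mpc1, a subunit of the mitochondrial pyruvate carrier, fell by 0.21 ± 0.05 (adjusted p = 0.00566).

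Some markers of other cell types were called too, at a background of 13.9% of all genes higher and 11.9% lower. Endothelial markers were higher in STZ,SD in 4 of 8, with their mean between 8.71 and 8.95 in Con,SD and between 8.96 and 9.22 in STZ,SD, and nerve and glia markers in 3 of 6 (7.16 to 7.43 against 7.46 to 7.51). Hepatocyte markers were lower in 2 of 12 (7.82 to 12.25 against 8.32 to 9.29), macrophage (8 measured) and red cell markers (3 measured) gave no call, and adipocyte markers 1 in each direction of 6. Of the fast fibre markers 1 of 10 was called, Pvalb at -0.18, and the fast fibre mean ran from 13.08 to 13.34 in Con,SD and from 13.11 to 13.35 in STZ,SD. Of the slow fibre markers 1 of 8 was called, Casq2 at 0.83 ± 0.29, with a median difference of 0.62 over the list and group means of 8.00 ± 1.02 (SD) in Con,SD and 8.52 ± 1.43 in STZ,SD. The part of other cells in the members' changes was not tested, and in whole muscle a smaller share of a cell type and less RNA per cell cannot be told apart.

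No member passed this test for bezafibrate in diabetic mice, and only 4 of all 19938 genes did. The lack of calls was thus not particular to the members. Between STZ,BEZ and STZ,SD, 0 of 36 members were called by limma and 0 by the permutation method SAM, at a background of 0.0201% of all genes in limma, and 2 had an unadjusted p under 0.05. No member had groups without overlap, beside 1.16% of all genes. The smallest adjusted p was 0.829, for Pgam2. Its STZ,BEZ arrays read 12.38, 12.34, 12.55, 12.44 and 12.27, all above the 2 low diabetic arrays and within reach of the other 3, for a difference of 0.29 ± 0.12 (95% interval 0.04 to 0.54). Pfkl, the other of the 2, was 6.84, 6.77, 6.85, 6.76 and 6.74 with bezafibrate and 6.64, 6.35, 6.61, 6.75 and 6.61 without (0.20 ± 0.09, adjusted p = 0.867).

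For the members called in diabetes the values with bezafibrate are set beside those above only as a description, since both comparisons rest on the same STZ,SD arrays. Gpd1 was 12.02, 11.89, 11.98, 11.94 and 11.92 in STZ,BEZ, overlapping STZ,SD (0.16 ± 0.10, 95% interval -0.04 to 0.37). Pfkm was 12.81, 12.68, 12.83, 12.80 and 12.72, also overlapping STZ,SD (0.11 ± 0.06, 95% interval -0.02 to 0.23). Ldha differed by 0.02 ± 0.06 (95% interval -0.10 to 0.15), an interval that does not reach the size of its fall in diabetes. Of the members that rose in diabetes, Pfkfb3 stood at 0.15 ± 0.16 (-0.18 to 0.49) and Fbp2 at -0.30 ± 0.28 (-0.88 to 0.29). The intervals thus left room for moves of either sign in both. Slc2a4 and Hk2 had differences of 0.19 ± 0.08 and 0.37 ± 0.11, not called either (adjusted p = 0.867 and 0.778), and none of the 41 measured pathway genes outside the members passed.

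Set against the controls, muscle of STZ,BEZ mice had 16 called members, 10 lower and 6 higher, at a background of 21.6% of all genes (13.1% higher, 8.45% lower). The members' share was 44.4%, and SAM also called 16. The median difference was -0.07, beside -0.01 over all genes. This comparison uses the same Con,SD arrays as the first, so the values below are given beside those above and not as a repeat of them. The calls were less stable, falling to 8 with the slow fibre term described further on, to 10 without STZ,BEZ array 2 and to 14 without arrays 1 and 4 of Con,SD. The slow fibre term ended the calls of Tpi1, Pkm, Gpd1, Fbp2, Phka1, Phka2, Slc16a1 and Slc16a3, and leaving out the 2 controls ended those of Fbp2 and Phka2. Markers of other cell types also moved: hepatocyte markers were lower in 7 of 12 (their mean ran from 7.75 to 8.46 in STZ,BEZ), endothelial markers higher in 4 of 8 (9.04 to 9.14), and the 8 slow fibre markers, none of them called, had a median difference of 1.11. Their part in the members' changes was not tested.

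Pfkfb3 had the smallest p here, with STZ,BEZ values of 11.64, 11.80, 11.80, 11.86 and 11.57, all above the highest control (0.78 ± 0.15, adjusted p = 0.00179), or 1.72-fold. Ldha was 13.46, 13.50, 13.44, 13.44 and 13.46, all below the lowest control (-0.25 ± 0.05, adjusted p = 0.00466). Eno3 at 13.41, 13.32, 13.40, 13.41 and 13.40 was likewise below every control (-0.19 ± 0.05, adjusted p = 0.0133). The STZ,BEZ arrays were also clear of the controls in Pfkm, Pkm, Tpi1, Pfkfb4 and Gpd2. The share of all genes without overlap was not counted for this comparison. Pfkfb4 read 7.71, 7.75, 7.82, 7.97 and 7.86, none of them within the control range of 7.98 to 8.18 (-0.28 ± 0.06, adjusted p = 0.00741). Pgm2 was higher by 0.31 ± 0.08 (adjusted p = 0.014), and Pfkm (-0.21 ± 0.06), Phkg1 (-0.32 ± 0.08), Pkm (-0.27 ± 0.08), Gpd1 (-0.29 ± 0.09), Slc16a3 (-0.22 ± 0.07), Phka1 (-0.22 ± 0.07) and Tpi1 (-0.19 ± 0.07) were lower. Slc16a3, Phka1 and Tpi1 lost this call without any of 3, 2 and 4 arrays, STZ,BEZ array 2 among them each time.

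Other members changed sides of the threshold. Gpd2 was higher in STZ,BEZ (0.25 ± 0.07, adjusted p = 0.0273), with all 5 arrays at 10.83 to 11.00 above the controls' 10.47 to 10.79, and Slc16a1 was higher by 0.31 ± 0.12 (adjusted p = 0.0975, lost without any of 9 arrays). Fbp2 (0.68 ± 0.26, adjusted p = 0.0844) and Phka2 (0.21 ± 0.08, adjusted p = 0.0998) kept a narrow call, lost without any of 8 and 6 arrays, here too with STZ,BEZ array 2 among them. Pgam2 (-0.08 ± 0.11, adjusted p = 0.663), Gys1 (-0.12 ± 0.06) and Gyg (0.07 ± 0.07) were not called against the controls, and the test of their change with bezafibrate, above, did not pass either. The remaining 17 members were not called, with differences between -0.12 and 0.17. Of the 41 pathway genes around the members 5 rose and 4 fell, a share of 22% near the background of all genes, among them Tigar (-0.57 ± 0.08), Ppp1cc (-0.35 ± 0.05), Gsk3b (0.31 ± 0.07) and Stbd1, a glycogen-binding protein (0.21 ± 0.07), while Slc2a4 (-0.18 ± 0.08, adjusted p = 0.129) and Hk2 (-0.05 ± 0.10) did not pass.

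The large spread of Ldhb was examined against fibre type, a comparison added after the data were seen. The mean of 8 slow fibre markers, such as the slow myosin Myh7, differed widely between arrays of every group, from 6.76 to 9.30 in Con,SD, 6.87 to 9.92 in STZ,SD and 8.44 to 10.16 in STZ,BEZ. These ranges overlapped, with group means of 8.00, 8.52 and 9.04. In a limma fit with the groups and this mean as terms, 0.181% of 19930 genes followed it within groups, that is 36 genes, 33 of them upwards. Ldhb was the only member called, with 0.42 ± 0.06 log2 units for each unit of the slow fibre level (adjusted p = 0.00929). It ranked 12 of all genes by p. Ldhb's lowest values of 8.47 were on Con,SD array 6 and STZ,SD array 5, the arrays with the lowest slow fibre level of their groups, and its highest, 10.20, on Con,SD array 7, which had the highest level among the controls. Other arrays departed from this order: STZ,SD array 1 and STZ,BEZ array 2 had the highest slow fibre levels of their groups, but Ldhb of only 9.41 and 9.75, below the highest of each group. Its other probe set gave 0.45 ± 0.06, and leaving out each array in turn gave slopes of 0.37 to 0.48, all called. Gbe1 came next (0.19 ± 0.04, adjusted p = 0.156), Slc16a3 had -0.08 ± 0.02 (adjusted p = 0.314), Ldha -0.04 ± 0.02 (adjusted p = 0.75), and 26 of the 36 members had slopes below 0. With this term in the model, 19 members were called between STZ,SD and Con,SD, the 17 named above among them, and 8 between STZ,BEZ and Con,SD.

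**Figure D4:**
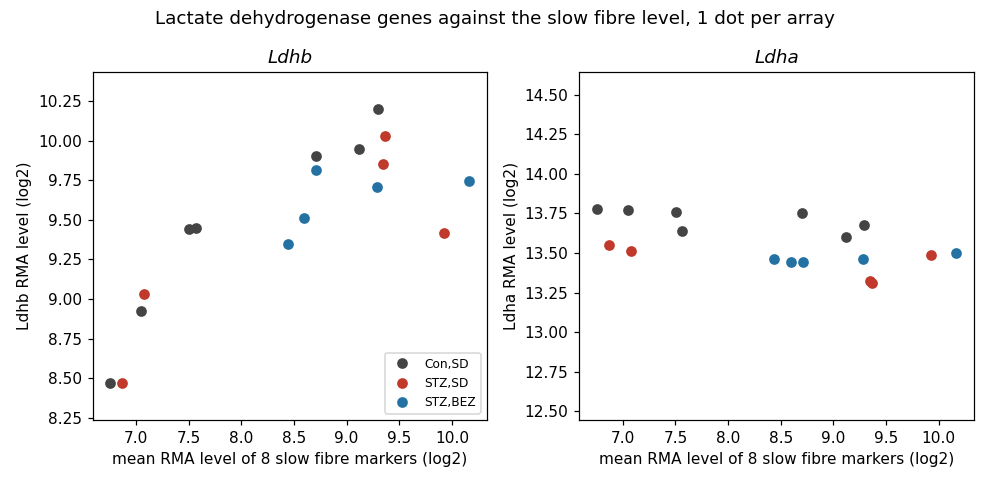
RMA level (log2) of Ldhb (left) and Ldha (right), on vertical axes of equal length, against the mean RMA level of 8 slow fibre markers (log2), 1 dot per array, coloured by group. Ldhb spans 8.47 to 10.20 and tends to be higher on arrays with more slow fibre signal. It is not highest on STZ,BEZ array 2 and STZ,SD array 1, which have the most of that signal. Ldha stays between 13.31 and 13.78 with the Con,SD dots on top.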

How the data were processed

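Skeletal muscle RNA of 17 mice was measured on 1 array each. The deposited values are log2 levels that, per the labels, the authors made with RMA in Affymetrix Expression Console 1.2, which corrects background, normalises between arrays and summarises probes; all 35556 probe sets and all 17 arrays were used as deposited. RMA levels carry no read depth, and precision rests on 5 to 7 arrays per group, each from 1 mouse. The labels and the study's methods differ on the streptozotocin dose, the bezafibrate strength and the treatment of controls, and the labels were followed.

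Of the probe sets, 21789 had 1 gene symbol in the platform annotation, 1621 several and 12146 none, giving 19938 genes with the brightest probe set of each. All groups entered 1 fit in limma 3.58.1 (R 4.3.3), with empirical Bayes moderation and Benjamini-Hochberg adjustment over all genes at a threshold of 0.1. The procedure was tested on simulated data whose group differences were larger than those of most called members here. It was not tested at smaller sizes. SAM with 100 permutations at a false discovery rate of 10% was an alternative, as were median centring, leaving out the 30% dimmest genes, averaging all probe sets of a gene, fits of 2 groups, array weights, the replicate number as a block and leaving out each array. The slow fibre term, every probe set as a row and leaving out arrays 1 and 4 of Con,SD were chosen after seeing the data. Same-numbered arrays did not deviate together over all genes (correlations of -0.239 to 0.083), so the numbers were not used as pairs in the main fit. A shared batch was not tested. Values per array were given for the 10 members with the smallest p in the first comparison and the 4 in each other. They were also given, chosen after their values were seen, for Fbp2, Pgam2, Phka2, Pgm2 and Ppp1r3c. Up to 3 genes per pathway list were named, and Pgm1, Gys2 and Pygl were added after their values were seen. Members, lists and tests were chosen with earlier results of these data known.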

Additional observations from a re-analysis of the deposited data

Results flagged for a closer look

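Each of the 36 members was examined in each of the 3 groups for a single array far from the rest, by the gap to its nearest neighbour as a share of the group's range. Of these 108 combinations 3 stood out, and chance alone gives about 1 in 20. Tpi1 was 13.25 on Con,SD array 2, with the next control at 13.09. Eno3 was 13.32 on STZ,BEZ array 2, below the other 4 at 13.40 to 13.41. Gpd2 was 11.0 on STZ,BEZ array 1, above the next at 10.86. The calls of Tpi1 in STZ,SD and of Eno3 and Gpd2 in STZ,BEZ, each against Con,SD, were also made when these arrays were left out, but Tpi1's call in STZ,BEZ against Con,SD was lost without Con,SD array 2.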

How the results depend on the processing

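The count of called members in STZ,SD against Con,SD stayed between 16 and 19 under all alternatives run, and that in STZ,BEZ against STZ,SD at 0. In STZ,BEZ against Con,SD it was 16, with 8 under the slow fibre term, which was chosen after seeing the data, and 10 to 16 with each array left out, the lowest without STZ,BEZ replicate 2. With the replicate number as a block the counts were 17 (15 of them called without it), 0 and 11 (10 called without it), although the numbers were not taken as pairs. The block ended the calls of Gys1 and Gyg in the first comparison and added Pfkp and Ppp1r3c. The cause of these moves was not tested. The number of members following the slow fibre level was 1 to 2 with each array left out, Gbe1 joining Ldhb.

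Signs turned only in members that were not called in the comparison at hand. In STZ,SD against Con,SD, Ugp2 was -0.001116 with median centring, -0.02978 with the block, -0.03183 with the slow fibre term and -0.04519 to 0.07825 with each array left out. Slc16a1 was -0.0103 with the block. Pgk1 was 0.003805 and Bpgm 0.001716 with the slow fibre term, and -0.03915 to 0.04505 and -0.125 to 0.103 with each array left out. Without arrays 1 and 4 of Con,SD, Ldhb was 0.06212 and Gbe1 0.07212, and with each array left out -0.286 to 0.1045 and -0.1518 to 0.1059. In STZ,BEZ against STZ,SD, leaving out each array gave -0.01554 to 0.06915 for Gys1, -0.02882 to 0.1097 for Pkm and -0.007095 to 0.05299 for Ldha. Those named are only from the members called in STZ,SD against Con,SD. Members outside that set turned too, such as Bpgm (-0.1765 to 0.05157). Ldhb did so in STZ,BEZ against Con,SD (-0.01933 to 0.2693). Arrays of 5 to 7 mice limit the comparisons, and a p above the threshold does not show that levels were alike. The dimmest members, Aldoc, Pfkp, Pfkl, Ppp1r3d and Pgm2, lie closest to the array's background.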
